A study of Taeniopygia guttata with 5 samples.

Results

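This report concerns how far the difference between 100 d and 45 d in the song nucleus HVC was shared by, absent from or turned round in whole brain (WB) of male zebra finches. Its members are the 1205 transcripts, of 4675 in the deposited tables, that carry a raw read count in all 5 RNA-Seq libraries. The libraries are HVC at 100 d (R92L3), HVC at 45 d (R92L1 and R92L2), WB at 100 d (R81L5) and WB at 45 d (R81L6). HVC libraries each held pooled RNA from 4 birds and WB libraries pooled RNA from 2 brains. All were unmanipulated males, HVC being cut from frozen sagittal sections and taken from birds that neither sang nor heard song during 1 h of monitoring. Younger birds lived with their parents up to collection, whereas older ones had been separated and held in group cages. Age and housing therefore cannot be told apart. Part of the ventricular zone next to HVC may have been taken with it. Only HVC at 45 d has 2 libraries. Which of them is its first replicate is not given, and neither is whether they came from separate birds. HVC and WB were run under different labels (R92 and R81), so tissue and run cannot be told apart.

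HVC is a nucleus of the avian pallium that drives learned song. The younger age falls within the sensorimotor phase of song learning, and the older one follows song crystallization. Its projection neurons and local interneurons are wired in during this time, and new neurons continue to be added. Cholinergic cells of the basal forebrain and dopamine-receptive neurons of the striatum lie outside HVC, although cholinergic fibres reach it. An age difference in HVC may be one of the whole brain, which the WB libraries allow to be examined. In bulk tissue, more cells of a type and more RNA per cell cannot be told apart.

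A transcript entered a deposited table by ranking among the 1800 smallest of the authors' p-values for one comparison. Of the 1205 members, 818 were complete through the 2 tables that compare the tissues, 342 through the 2 that compare the ages, and 45 through both. Members listed through the age tables had therefore been selected for an age difference, and those from the tissue tables for a tissue difference. Reads over the members summed to 226667 in HVC at 100 d, 229255 and 262945 in HVC at 45 d (R92L1 and R92L2), 512220 in WB at 100 d and 560026 in WB at 45 d. These sums leave out all unlisted transcripts and are not the depth. Library sizes relative to HVC at 100 d were 0.905 and 1.09 for HVC at 45 d, 1.51 for WB at 100 d and 1.81 for WB at 45 d. A level below means reads divided by this relative size. Folds are adjusted for it as well, while reads are given as deposited.

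The 45 d HVC pair sets the only replicate spread. Across the 1019 members with at least 20 reads in that pair, log2 levels of its libraries correlated with r = 0.95 (a description across transcripts, which are not independent replicates). In 97 of them (9.52%) the pair differed more than 2-fold, and in 373 (36.6%) it differed beyond sampling noise by an exact binomial test at an unadjusted p under 0.05. Among the 978 members averaging at least 20 reads over the 5 libraries, the HVC age difference took opposite signs against R92L1 and R92L2 in 266. Marker genes of HVC neurons (7 of 8 listed, ALDH1A2, CADPS2, CRHBP, NTS, PHEX, SCUBE1 and UTS2D) had summed levels of 8713 in HVC at 100 d and 7913 and 9159 at 45 d, against 1655 in WB at 100 d and 1775 at 45 d. In all 3 HVC libraries these summed levels were several times those in WB. Most members were listed through the comparisons of the tissues, and so selected for a tissue difference. This contrast is therefore no test of the dissection.

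Whether the age difference depended on tissue was tested with the quasi-likelihood test of edgeR as (HVC at 100 d over 45 d) over (WB at 100 d over 45 d), called the age by tissue value. A positive value means that the 100 d over 45 d ratio was larger in HVC. None of the 1176 members that passed the filter on low counts reached an adjusted p under 0.1, which is 0%. At an unadjusted p under 0.05 there were 43 with a positive value (3.66%) and 50 with a negative one (4.25%), while DESeq2 and limma-voom also called 0 after adjustment. Without the filter on low counts 4 were called, among them SLC5A7 (adjusted p = 0.0269) and TAC1 (adjusted p = 0.0668). The age difference within HVC called 0 of 2150 transcripts (0%), while DESeq2 called 2 (PDE10A and RASGRP1) and limma-voom 0. At an edgeR unadjusted p under 0.05 there were 443, of which 157 were among the 1095 members fitted. The non-members fitted had all been listed for an HVC age difference, so the 443 are no measure of its extent. Taken from the fit of all 5 libraries, the HVC difference was called for 12 members, which were ISG12, SLC5A7, RASGRP1, PDE10A, LHX8, LDB3, ERCC5, PPL, TAC1 and 3 without a gene name. Within WB 2 of 1318 were called (0.152%), both of them members, ISG12 and ERCC5. All p-values rest on 1 residual degree of freedom, the 45 d HVC pair. In edgeR that spread was also pooled across transcripts, with prior degrees of freedom of 49.4 (age by tissue), 7.33 (HVC) and 24.1 (WB). The p-values so measure only the spread between those 2 libraries, which may be technical. Few single differences described here therefore stand beyond replicate error by test, and the rest are read counts and sizes.

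By size alone, 134 of the 978 members with at least 20 reads differed at least 2-fold between the ages in HVC, 55 higher and 79 lower at 100 d. In WB 72 did, 26 higher and 46 lower. Over all fitted transcripts, members or not, 11.7% were at least 2-fold higher and 15.3% lower at 100 d in HVC. In WB 8.27% were higher and 10.2% lower. These shares carry the filter on low counts but not the 20-read minimum. They are not like for like, since 1095 of the 2150 fitted in HVC were members, against 1176 of 1318 in WB. The others fitted in HVC had been listed for an HVC age difference. How a member was listed mattered for the share that differed 2-fold. Of the 712 listed only through the tissue tables, 4.78% differed 2-fold in HVC and 2.67% in WB, while of the 227 listed only through the age tables, 36.6% did in HVC and 17.2% in WB. The age differences of the tissues ran mostly the same way, with the same sign in 671 of 978 members (68.6%), r = 0.35 and rho = 0.41 across transcripts. Among the tissue-listed members r was 0.20 and rho 0.37, and among the age-listed ones r was 0.42 and rho 0.34. The same sign was seen in 66.4% of the tissue-listed and 72.2% of the age-listed. Listing bears on this agreement too, since tissue-listed members had been selected for a tissue difference at both ages. How far it shaped the agreement was not tested. The 2 differences share no library, but the points share all 5 libraries and their sizes, and no test was made.

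A 2-fold difference in both tissues with the same sign (a shared difference) was seen for 27 members, 11 higher and 16 lower at 100 d. Another 9 were 2-fold apart in both tissues with opposite signs. HVC differed 2-fold where WB differed by under 0.5 on the log2 scale in 32 members, 13 higher and 19 lower at 100 d. The reverse, a WB difference without one in HVC, was found for 13, of which 3 were higher and 10 lower at 100 d. The remaining 897 fell in none of these classes. The classes leaned on single 45 d HVC libraries, since without R92L2 the opposite differences numbered 5 in place of 9, and without R92L1 the HVC differences numbered 52 in place of 32. Listing shaped the classes, since 26 of the 27 shared differences and 8 of the 9 opposite ones were members of both age tables, while 30 of the 32 HVC differences and all 13 of the WB differences came through the tissue tables alone. The scatter of age differences shows the 4 classes, whose separation is set by the limits that define them.

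**Figure D1:**
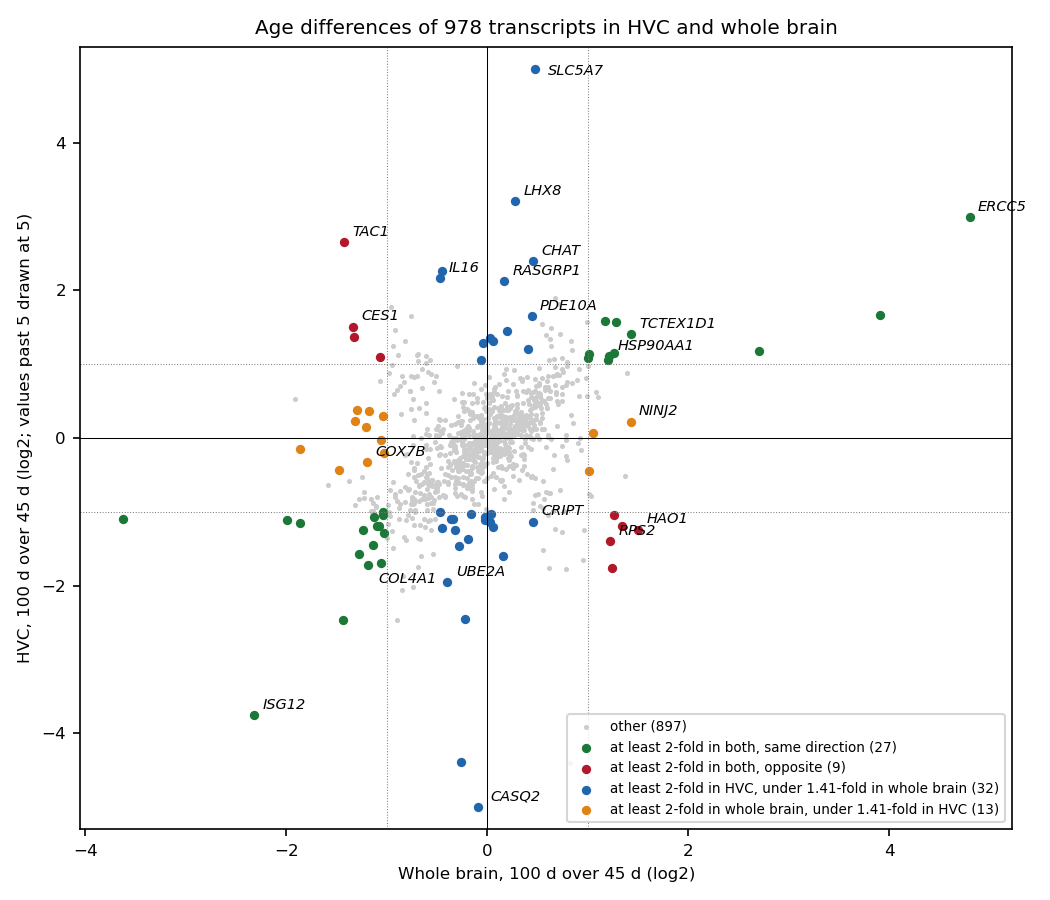
Log2 ratio of 100 d over 45 d in HVC (vertical axis) against that in whole brain (horizontal axis) for the 978 transcripts with a mean of at least 20 reads, coloured by class; dotted lines mark 2-fold. ISG12 lies low in both tissues, and TAC1 high in HVC and low in whole brain. HVC values past the limits of the plot, among them SLC5A7 and CASQ2, are drawn at those limits. Both have an HVC group without reads, as does C7orf16, which is drawn within the plot. Heights of such transcripts have no fixed size.

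Genes of cholinergic neurons stood among the transcripts higher in HVC at 100 d with little difference in WB. SLC5A7, which encodes the high-affinity choline transporter that supplies choline for acetylcholine synthesis (chromosome 1 of taeGut1, 27526372 to 27546688), had 29 reads in HVC at 100 d, against 0 and 0 in the 45 d HVC libraries. In WB it had 86 reads at 100 d and 74 at 45 d. The transcript was thus read in both WB libraries and in the older HVC, and in neither younger HVC library. Set against a floor of 3 reads for the 45 d pair, the older HVC library was at least 19.3-fold higher. The WB ratio was 1.40 (95% counting interval 1.01 to 1.93). The age by tissue test gave the smallest p of all members (edgeR adjusted p = 0.142).

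LHX8, a LIM homeobox factor needed for cholinergic neurons of the basal forebrain in mice, lies on chromosome 8 from 27787916 to 27798943. It had 47 reads in HVC at 100 d, against 3 and 7 at 45 d, and 165 in WB at 100 d against 163 at 45 d. Its HVC value stood well above both 45 d libraries while the WB libraries were near each other. The HVC ratio was 9.38 (95% counting interval 4.68 to 20.8), the WB ratio 1.22 (0.973 to 1.52), and the age by tissue value 2.93 on the log2 scale (standard error 0.76, edgeR adjusted p = 0.545).

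CHAT, which encodes choline acetyltransferase, the enzyme that makes acetylcholine, had 11 reads in HVC at 100 d, against 2 and 2 at 45 d, and 63 in WB at 100 d against 55 at 45 d. Its HVC ratio of 5.49 had a wide counting interval, 1.63 to 23.6, and its age by tissue value was 1.94 (standard error 1.16, edgeR adjusted p = 1). ISL1, another factor of cholinergic cells, was near the floor in HVC, with 1 read at 100 d against 0 and 1 at 45 d. Of the 5 cholinergic markers listed, these 4 were members. Their summed level was 88.0 in HVC at 100 d, against 5.53 and 9.16 at 45 d, and 217 in WB at 100 d against 173 at 45 d. As ratios of sums this was 11.7 in HVC and 1.26 in WB. The set reached less than the WB level even at 100 d. SLC5A7, LHX8, CHAT and ISL1 were listed through the tissue tables alone.

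TAC1, the precursor gene of substance P and neurokinin A and a marker of direct-pathway striatal neurons in mammals, pointed in opposite directions. On chromosome 2 from 27087251 to 27096835, it had 67 reads in HVC at 100 d, against 10 and 11 at 45 d, and 17 reads in WB at 100 d against 55 at 45 d. HVC at 100 d was highest of all 5 libraries, and WB at 100 d was among the low ones after size adjustment. The HVC ratio was 6.37 (3.85 to 10.9) and the WB ratio 0.371 (0.202 to 0.649). Its age by tissue value of 4.08 (standard error 0.93, edgeR adjusted p = 0.328) was 2.66 in HVC against -1.42 in WB on the log2 scale.

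RASGRP1, an exchange factor that activates Ras downstream of calcium and diacylglycerol and is rich in striatum, had 385 reads in HVC at 100 d, against 64 and 114 at 45 d. WB had 254 reads at 100 d and 271 at 45 d. HVC at 100 d exceeded both younger HVC libraries and both WB libraries. Its HVC ratio was 4.32 (3.60 to 5.19), its WB ratio 1.13 (0.944 to 1.34), and its age by tissue value 1.96 (standard error 0.51, edgeR adjusted p = 0.545). In the HVC test alone its log2 value was 2.13 (standard error 0.32, edgeR adjusted p = 0.227).

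PDE10A, a phosphodiesterase of striatal medium spiny neurons, showed the same shape at greater depth. It had 818 reads in HVC at 100 d, against 229 and 290 at 45 d, and 906 in WB at 100 d against 801 at 45 d. The HVC ratio was 3.15 (2.81 to 3.52) and the WB ratio 1.36 (1.23 to 1.495), with an age by tissue value of 1.21 (standard error 0.43, edgeR adjusted p = 1). PDE10A, SLITRK6, CFTR, OPRK1, ADSSL1, NINJ2, DCX, POP5 and FUT11 fall outside the rule for named genes, as do ENO1, IFIT5, IFIH1, TRIM25, POSTN, PPL, CD200 and single genes of the marker lists, and were chosen after their values had been seen.

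The striatal marker list did not run one way in HVC as a whole. Of its 9 markers, TAC1 and PTPN5 were members, and PTPN5, which encodes the phosphatase STEP, had 168 reads in HVC at 100 d, against 151 and 185 at 45 d, an even level. Outside the members, the dopamine receptor gene DRD2 had 19 reads in HVC at 100 d, against 5 and 6 at 45 d, and the adenosine receptor gene ADORA2A had 8, against 1 and 2, so both were higher at 100 d in few reads. Neither was a member, so their WB differences were not analysed here. Together the level of TAC1 and PTPN5 was 235 in HVC at 100 d, against 178 and 180 at 45 d, and 337 in WB at 100 d against 336 at 45 d. Whether tissue from outside HVC had a part in these differences was not tested.

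IL16, a cytokine and PDZ-domain protein gene that is also expressed in neurons, had 68 reads in HVC at 100 d, against 15 and 15 at 45 d, and 39 in WB at 100 d against 65 at 45 d. The 45 d pair agreed, and HVC at 100 d was the highest library. Its HVC ratio was 4.52 (2.90 to 7.20), its WB ratio 0.720 (0.471 to 1.09), and its age by tissue value 2.63 (standard error 0.83, edgeR adjusted p = 1). SLITRK6, a neuronal membrane protein of neurite growth, had 47 reads in HVC at 100 d, against 21 and 17 at 45 d, and 167 in WB at 100 d against 207 at 45 d. CFTR, an anion channel, had 102 reads in HVC at 100 d, against 36 and 46 at 45 d, with 20 in WB at 100 d against 23 at 45 d. OPRK1, the kappa opioid receptor gene, had 17 reads in HVC at 100 d, against 8 and 5 at 45 d, and 63 in WB at 100 d against 74 at 45 d. In all 3 the older HVC library was above both younger ones.

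**Figure D2:**
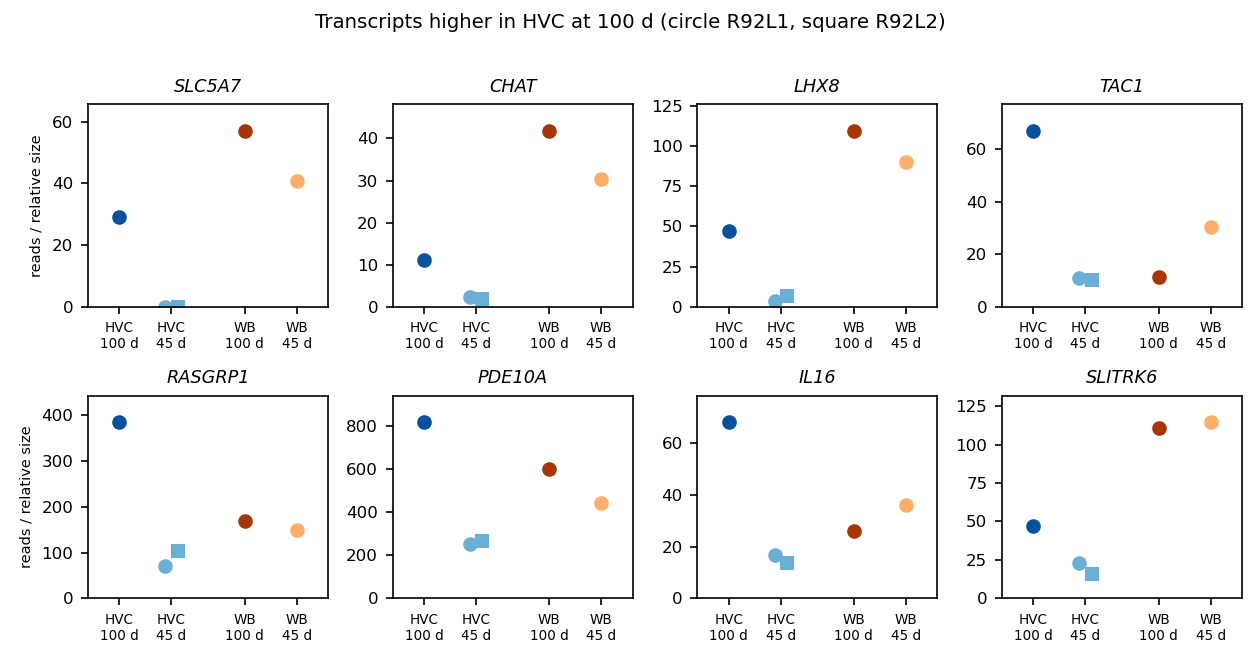
Level (reads divided by relative library size, each axis from 0) of 8 transcripts in HVC at 100 d, the pair of HVC libraries at 45 d, and whole brain (WB) at 100 d and 45 d; every point is 1 library. In all 8 the 100 d HVC library is above both 45 d HVC libraries, and SLC5A7, CHAT, LHX8 and SLITRK6 remain below whole brain at both ages.

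Among genes of meninges and choroid plexus, SLC13A4 and OGN were in the same class and rested on few reads. The other markers of these tissues given below were not in that class. SLC13A4, a sulfate transporter of choroid plexus and meninges, had 10 reads in HVC at 100 d, against 1 and 3 at 45 d, and 42 in WB at 100 d against 69 at 45 d. OGN, which encodes the small proteoglycan osteoglycin, had 15 reads in HVC at 100 d, against 1 and 10 at 45 d. TTR-1, transthyretin, the defining gene of choroid plexus, had 11 reads in HVC at 100 d, against 9 and 18 at 45 d, and 1240 in WB at 100 d against 1401 at 45 d. The 2 choroid plexus markers summed to a level of 21.0 in HVC at 100 d, against 11.1 and 19.2 at 45 d. The 4 meningeal markers (of 6) summed to 168 in HVC at 100 d, against 191 and 152 at 45 d, with DPT at 0 reads at 100 d. Their part in the result was not tested.

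Primers from the study's separate RT-qPCR are printed for 4 members whose age values are given here, since they are the sequences that the study paired with those gene names. They were not aligned to the transcripts here. They are read 5′ to 3′ in lower case from the supplementary table of primers, and no RT-qPCR value is used.
ISG12 forward: ttaggcatatcctgagtttag
ISG12 reverse: taccctttgctgagtgttt
RASGRP1 forward: tccgtgagactgaaacca
RASGRP1 reverse: tgcctggagatagggatt
IL16 forward: gccgttaattcccacctt
IL16 reverse: atgacacctggctgctga
CRIPT forward: agagttcagagggaaggag
CRIPT reverse: cttataggcatacgactaaatg

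Among the 19 members lower in HVC at 100 d with little difference in WB, the 45 d pair itself often lay apart. CRIPT, a postsynaptic protein that binds the third PDZ domain of PSD-95, had 126 reads in HVC at 100 d, against 183 and 381 at 45 d, and 190 in WB at 100 d against 166 at 45 d. The older HVC library was below both younger ones, which themselves differed. The HVC ratio was 0.446 (0.365 to 0.542), the WB ratio 1.37 (1.11 to 1.70), and the age by tissue value -1.59 (standard error 0.54, edgeR adjusted p = 1). Taken against R92L1 alone, the CRIPT log2 value in HVC was -0.68, and against R92L2 alone it was -1.47.

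UBE2A, a ubiquitin-conjugating enzyme tied to intellectual disability in people, had 6 reads in HVC at 100 d, against 11 and 37 at 45 d, and 62 in WB at 100 d against 98 at 45 d. Its age by tissue value was -1.55 (standard error 0.99, edgeR adjusted p = 1). GJD2, the connexin of neuronal electrical synapses, had 56 reads in HVC at 100 d, against 89 and 161 at 45 d, and 432 in WB at 100 d against 509 at 45 d. For GJD2 the HVC ratio was 0.447 (0.328 to 0.599) against 1.02 (0.894 to 1.16) in WB, with an age by tissue value of -1.16 (standard error 0.53, edgeR adjusted p = 1). For both genes HVC at 100 d was the lowest HVC library. The 45 d pair was widely spread for UBE2A, at levels of 12.2 and 33.9, and less so for GJD2, at 98.4 and 148.

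CASQ2, the calcium-storing calsequestrin of cardiac muscle and of cerebellar Purkinje cells in birds, was almost unread in HVC. It had 0 reads in HVC at 100 d, against 1 and 17 at 45 d, and 647 in WB at 100 d against 828 at 45 d. The level at 100 d was at least 3.01-fold lower than at 45 d, with a floor of 3 reads, and this rested on R92L2 alone. RUNX2, a transcription factor, had 4 reads in HVC at 100 d, against 7 and 14 at 45 d. PTTG1, the securin that regulates sister chromatid separation, had 39 reads in HVC at 100 d, against 46 and 127 at 45 d, with 251 in WB at 100 d against 305 at 45 d. CRYM, a thyroid hormone binding protein, had 13 reads in HVC at 100 d, against 21 and 35 at 45 d, with 64 in WB at 100 d against 99 at 45 d.

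Shared differences with lower levels at 100 d were led by ISG12, an interferon-inducible gene on chromosome 2 from 94975562 to 94980116. It had 290 reads in HVC at 100 d, against 2263 and 5818 at 45 d, and 156 reads in WB at 100 d against 937 at 45 d. Both older libraries were below every younger one of their tissue, and the 45 d HVC pair differed by more than 2-fold. The HVC ratio was 0.0716 (0.0635 to 0.0805) and the WB ratio 0.1999 (0.168 to 0.237). In WB ISG12 fell by 2.32 on the log2 scale (standard error 0.42, edgeR adjusted p = 0.0596). In HVC its value was -3.76 (standard error 0.49, edgeR adjusted p = 0.227), and the age by tissue value of -1.43 (standard error 0.50, edgeR adjusted p = 1) did not separate the tissues. Under DESeq2, limma-voom and scaling by sums the WB call was lost.

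IFIT5, another interferon-induced gene, was also lower in HVC at 100 d but ran the other way in WB. It had 4 reads in HVC at 100 d, against 12 and 19 at 45 d, and 25 in WB at 100 d against 8 at 45 d, with an age by tissue value of -3.80 (standard error 1.36, edgeR adjusted p = 1). IFIH1, a sensor of double-stranded RNA, had 58 reads in HVC at 100 d, against 59 and 43 at 45 d. TRIM25, a ubiquitin ligase of that pathway, had 71 reads in HVC at 100 d, against 57 and 87 at 45 d. Interferon-linked members thus did not share one direction. IFIT5 averaged under 20 reads.

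COL4A1, a collagen of the vascular basement membrane, had 31 reads in HVC at 100 d, against 90 and 114 at 45 d, and 24 in WB at 100 d against 66 at 45 d. The HVC ratio was 0.303 (0.201 to 0.444), the WB ratio 0.437 (0.262 to 0.706), and the age by tissue value -0.52 (standard error 0.73, edgeR adjusted p = 1). CD74, the invariant chain of antigen presentation, had 17 reads in HVC at 100 d, against 77 and 29 at 45 d, and 42 in WB at 100 d against 105 at 45 d. DCX, a microtubule protein of migrating young neurons, had 40 reads in HVC at 100 d, against 81 and 102 at 45 d, and 28 in WB at 100 d against 71 at 45 d. For DCX the ratios were 0.436 (0.302 to 0.617) in HVC and 0.473 (0.294 to 0.743) in WB, an age by tissue value of -0.12 (standard error 0.72).

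Lower in both tissues at 100 d were also CTBS, a lysosomal chitobiase, GEMIN8, a subunit of the SMN complex that assembles spliceosomal particles, and BMP2KL, a kinase. TMSB10, an actin-binding thymosin, had 11 reads in HVC at 100 d, against 45 and 13 at 45 d, and 26 in WB at 100 d against 69 at 45 d. Its HVC difference rested on R92L1, with a log2 value of -2.17 against that library and -0.11 against R92L2. CTBS had 23 reads in HVC at 100 d, against 44 and 96 at 45 d, and 50 in WB at 100 d against 146 at 45 d. POP5, a ribonuclease P subunit, had 31 reads in HVC at 100 d, against 61 and 63 at 45 d, and 43 in WB at 100 d against 106 at 45 d. FUT11, a fucosyltransferase, had 11 reads in HVC at 100 d, against 24 and 22 at 45 d, and 43 in WB at 100 d against 113 at 45 d. In CTBS, POP5 and FUT11 the older library of each tissue was below the younger ones.

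LDB3, a PDZ-LIM protein of the Z line in muscle, missed the shared class only through its WB value. It had 26 reads in HVC at 100 d, against 121 and 168 at 45 d, and 25 in WB at 100 d against 56 at 45 d. The HVC log2 value was -2.46 (standard error 0.39, edgeR adjusted p = 0.272) against -0.90 (standard error 0.50, edgeR adjusted p = 1) in WB, with an age by tissue value of -1.57 (standard error 0.70, edgeR adjusted p = 1). NEUROD6, a transcription factor of excitatory pallial neurons, had 238 reads in HVC at 100 d, against 484 and 531 at 45 d, and 320 in WB at 100 d against 551 at 45 d. FAM19A1, a secreted chemokine-like protein, had 290 reads in HVC at 100 d, against 440 and 618 at 45 d, and 352 in WB at 100 d against 744 at 45 d. Both ran lower at 100 d in either tissue.

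Shared differences with higher levels at 100 d were led by ERCC5, a nuclease of nucleotide excision repair whose model lies on unplaced sequence (chromosome Un, 109623797 to 109626201). It had 45 reads in HVC at 100 d, against 8 and 3 at 45 d, and 213 reads in WB at 100 d against 9 at 45 d. In WB it rose by 4.80 on the log2 scale (standard error 0.73, edgeR adjusted p = 0.00674), and in HVC its value was 2.98 (standard error 0.64, edgeR adjusted p = 0.795). The WB call rests on 1 library per age and was not made by DESeq2, limma-voom or scaling by sums.

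HSP90AA1, a stress-inducible chaperone, had 518 reads in HVC at 100 d, against 198 and 283 at 45 d, and 1449 in WB at 100 d against 750 at 45 d. The ratios were nearly alike, 2.15 (1.89 to 2.44) in HVC and 2.32 (2.12 to 2.54) in WB, with an age by tissue value of -0.10 (standard error 0.43, edgeR adjusted p = 1). Its model is also on unplaced sequence, and reads could be divided with other HSP90 copies. TCTEX1D1, a dynein light chain relative, had 104 reads in HVC at 100 d, against 43 and 34 at 45 d, and 70 in WB at 100 d against 31 at 45 d. IL18R1, an interleukin receptor chain, had 21 reads in HVC at 100 d, against 6 and 8 at 45 d, and 65 in WB at 100 d against 32 at 45 d. SLC27A6, a fatty acid transporter, had 23 reads in HVC at 100 d, against 8 and 14 at 45 d, and 79 in WB at 100 d against 41 at 45 d.

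Study-named genes close to the shared class were PHF15 and GABRB1-2, with CD200 under the read minimum. PHF15, a PHD finger protein, had 364 reads in HVC at 100 d, against 167 and 186 at 45 d, and 501 in WB at 100 d against 347 at 45 d. GABRB1-2, a GABA-A receptor beta subunit, had 57 reads in HVC at 100 d, against 26 and 19 at 45 d, and 79 in WB at 100 d against 53 at 45 d. CD200, a neuronal ligand that restrains microglia, had 43 reads in HVC at 100 d, against 6 and 7 at 45 d, and 20 in WB at 100 d against 5 at 45 d. All 3 were higher at 100 d in every comparison of libraries within a tissue.

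**Figure D3:**
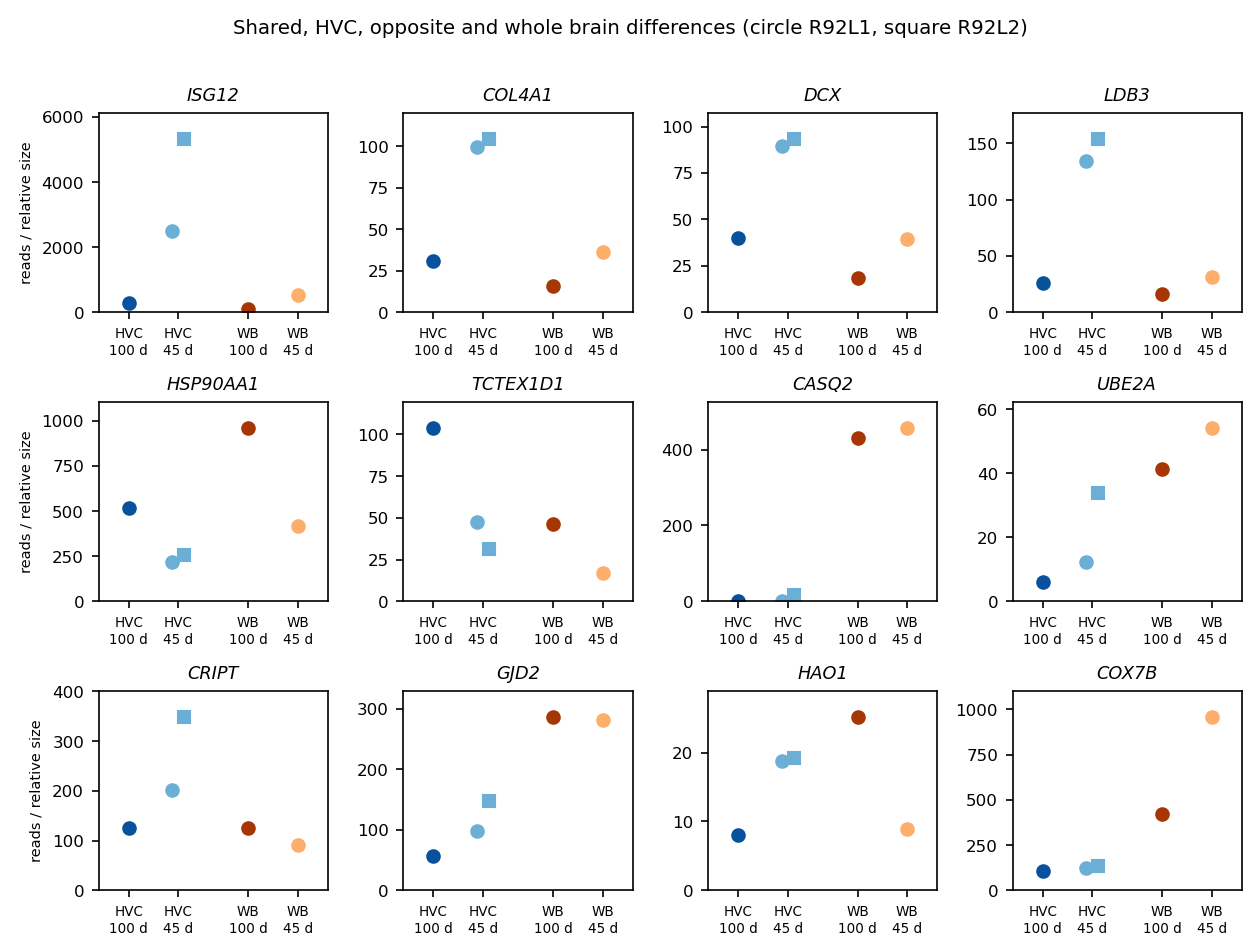
Level (reads divided by relative library size, each axis from 0) of 12 transcripts in HVC at 100 d, the pair of HVC libraries at 45 d, and whole brain (WB) at 100 d and 45 d; every point is 1 library. ISG12, COL4A1, DCX and LDB3 are lower at 100 d in both tissues, HSP90AA1 and TCTEX1D1 are higher at 100 d in both, HAO1 runs in opposite directions, and COX7B differs mainly in whole brain.

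Opposite differences were few and mostly of low count. CES1, a carboxylesterase, had 79 reads in HVC at 100 d, against 35 and 19 at 45 d, and 22 in WB at 100 d against 67 at 45 d. Its age by tissue value was 2.84 (standard error 0.84, edgeR adjusted p = 1). HAO1, a peroxisomal glycolate oxidase, had 8 reads in HVC at 100 d, against 17 and 21 at 45 d, and 38 in WB at 100 d against 16 at 45 d. RPS2, a protein of the small ribosomal subunit, had 20 reads in HVC at 100 d, against 58 and 46 at 45 d, and 8 in WB at 100 d against 4 at 45 d. BLVRA, biliverdin reductase, had 9 reads in HVC at 100 d, against 9 and 29 at 45 d, and 46 in WB at 100 d against 23 at 45 d. HAO1 and RPS2 were clear of both 45 d HVC libraries, whereas BLVRA rested on R92L2. Ribosomal genes have near-identical copies, so the reads of RPS2 may be divided among them.

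ENO1, the glycolytic enolase, ran in opposite directions at a greater depth. It had 459 reads in HVC at 100 d, against 579 and 1002 at 45 d, and 596 in WB at 100 d against 355 at 45 d. The HVC log2 value was -0.76 (standard error 0.30) against 1.01 (standard error 0.34) in WB, an age by tissue value of -1.78 (standard error 0.45, edgeR adjusted p = 0.545). It missed the opposite class because its HVC difference was below 2-fold.

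Of the WB differences without one in HVC, COX7B had the most reads. This subunit of cytochrome c oxidase had 104 reads in HVC at 100 d, against 113 and 148 at 45 d, and 632 in WB at 100 d against 1734 at 45 d. The ratios were 0.795 (0.627 to 1.002) in HVC and 0.438 (0.399 to 0.480) in WB, with an age by tissue value of 0.87 (standard error 0.46, edgeR adjusted p = 1). ADSSL1, an enzyme of AMP synthesis, had 372 reads in HVC at 100 d, against 330 and 432 at 45 d, and 58 in WB at 100 d against 145 at 45 d. NINJ2, a gene of mature glia, had 7 reads in HVC at 100 d, against 4 and 8 at 45 d, and 81 in WB at 100 d against 36 at 45 d. SLC7A2, a cationic amino acid transporter, had 35 reads in HVC at 100 d, against 46 and 49 at 45 d, with 17 in WB at 100 d against 10 at 45 d. UTS2D, a urotensin-related peptide gene, had 77 reads in HVC at 100 d, against 61 and 78 at 45 d, and only 1 in WB at 100 d against 3 at 45 d, so that its WB ratio was 0.400 (0.00762 to 4.98).

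Gene lists are described by counts and medians, set beside those of all members (median age by tissue value -0.04 over 1176, median log2 age difference -0.03 in HVC and -0.02 in WB over 978). Of the 1176, 535 had a positive age by tissue value and 641 a negative one, and at an unadjusted p under 0.05 the shares were 3.66% positive and 4.25% negative. The medians also depend on how members were listed, being -0.62 in HVC and -0.54 in WB over the 227 listed through the age tables alone, against -0.01 in HVC and 0.00 in WB over the 712 listed through the tissue tables alone. Medians over the tissue-listed members of a list, an alternative chosen after the data had been seen, are given for some of the lists. Scaling moves the medians too, and with it the gap of a list between the tissues. Under scaling by sums the medians over all members were 0.10 in HVC and -0.16 in WB. No member of any list was called in the age by tissue test. The 11 neurotransmitter receptor members with at least 20 reads had a median of 0.37 in HVC against 0.04 in WB, and 11 of the 14 fitted had a positive age by tissue value. Over its 9 tissue-listed members these medians were 0.25 in HVC against -0.04 in WB. GLRA3, a glycine receptor subunit, had 284 reads in HVC at 100 d, against 212 and 179 at 45 d, and 908 in WB at 100 d against 1057 at 45 d. HTR1B, a serotonin receptor gene, had 102 reads in HVC at 100 d, against 54 and 81 at 45 d, and 331 in WB at 100 d against 437 at 45 d. For both, the older HVC library was above the younger pair.

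The 14 neuropeptide and peptide receptor members had a median of 0.27 in HVC against 0.06 in WB, with 2 of 16 fitted positive at an unadjusted p under 0.05, TAC1 and CALCR. CALCR, the calcitonin receptor gene, had 187 reads in HVC at 100 d, against 143 and 153 at 45 d, and 44 in WB at 100 d against 96 at 45 d. CRHBP, which binds corticotropin-releasing hormone, had 1670 reads in HVC at 100 d, against 1265 and 1160 at 45 d, and 251 in WB at 100 d against 258 at 45 d. The 21 ion channel members had a median of 0.22 in HVC against 0.06 in WB, with 0 of 21 at an unadjusted p under 0.05. KCNT2, a sodium-activated potassium channel, had 301 reads in HVC at 100 d, against 156 and 282 at 45 d, and 181 in WB at 100 d against 215 at 45 d. Solute carriers had 3 positive and 1 negative of 29 fitted at that p, SLC22A16 being the negative one with 145 reads in HVC at 100 d, against 237 and 326 at 45 d, and 215 in WB at 100 d against 175 at 45 d.

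Lists of energy and protein synthesis leaned to lower values at 100 d in either tissue. The 23 members of mitochondrial respiration and ribosome had medians of -0.35 in HVC and -0.28 in WB, with 5 at least 2-fold lower in HVC, 4 in WB and 0 higher in either. Over all 978 members, 79 were 2-fold lower in HVC and 46 in WB. The 14 of the cytosolic ribosome had -0.34 in HVC and -0.51 in WB. Tissue-listed members alone gave smaller medians, -0.25 in HVC and -0.16 in WB for the 17 mitochondrial ones and -0.13 in HVC and -0.34 in WB for the 11 ribosomal ones. ATP5A1, the alpha subunit of ATP synthase, had 488 reads in HVC at 100 d, against 598 and 707 at 45 d, and 309 in WB at 100 d against 441 at 45 d. RPL10A, a large-subunit ribosomal protein, had 48 reads in HVC at 100 d, against 94 and 94 at 45 d, and 42 in WB at 100 d against 86 at 45 d. Neither list had a median age by tissue value away from that of all members, at -0.06 and -0.10.

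Proteasome and ubiquitin members (16) had medians of -0.20 in HVC and -0.13 in WB, and 1 of 16 was negative at an unadjusted p under 0.05. PSMB2, a proteasome subunit, had 179 reads in HVC at 100 d, against 256 and 384 at 45 d, and 156 in WB at 100 d against 208 at 45 d. Splicing and RNA-binding members (24) had -0.06 in HVC and 0.02 in WB, with HNRNPA2B1 at 5385 reads in HVC at 100 d, against 4280 and 4938 at 45 d. Cell cycle and DNA replication members (13) had -0.05 in HVC and 0.21 in WB. The 10 tissue-listed ones had -0.10 in HVC and 0.06 in WB. CCNG1, a cyclin induced by p53, was the 1 negative member of the whole list at that p. It had 136 reads in HVC at 100 d, against 161 and 331 at 45 d, and 231 in WB at 100 d against 187 at 45 d.

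The 15 immune-named members had medians of -0.43 in HVC and -0.31 in WB, the lowest HVC median of the lists, and -0.30 in HVC and -0.22 in WB over the 10 that were tissue-listed. Of the list's 17 members, with no read minimum, 3 were higher and 3 lower at 100 d in HVC (edgeR unadjusted p under 0.05). The list therefore did not move one way. CD200, among the 3 higher, was under the read minimum. Over the 1095 members fitted in HVC, 67 were higher and 90 lower at that p. Extracellular matrix members (21) had -0.16 in HVC and -0.03 in WB, with COL4A1 and POSTN 2-fold lower and OGN 2-fold higher in HVC. Of all 978 members with at least 20 reads, 79 were 2-fold lower and 55 higher in HVC. Axon guidance and growth members (16) had -0.01 in HVC and -0.18 in WB. GAP43, a growth cone protein, had 211 reads in HVC at 100 d, against 267 and 307 at 45 d, and 844 in WB at 100 d against 1150 at 45 d. SEMA3A, a repulsive guidance cue, had 102 reads in HVC at 100 d, against 169 and 131 at 45 d, and 352 in WB at 100 d against 462 at 45 d.

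Heat shock members (12) had -0.0048 in HVC and 0.02 in WB, with HSP90AA1 as the only one at least 2-fold apart. The 10 tissue-listed ones had -0.13 in HVC and 0.02 in WB. Activity-regulated members (5) had 0.03 in HVC and 0.04 in WB, and steroid, thyroid and retinoid members (10) had -0.13 in HVC and -0.03 in WB. Over the 8 tissue-listed members of the steroid, thyroid and retinoid list the medians were 0.05 in HVC and 0.04 in WB. Region-identity transcription factors (23) had 0.06 in HVC and -0.01 in WB, LHX8 being the 1 positive at an unadjusted p under 0.05. Muscle-type cytoskeletal and calcium-handling members (11) had -0.24 in HVC and -0.09 in WB, with CASQ2 and LDB3 the 2 negative ones. The HVC medians over all members of a list with at least 20 reads were the same to 2 decimals with transcripts lacking reads set at their floor.

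**Figure D4:**
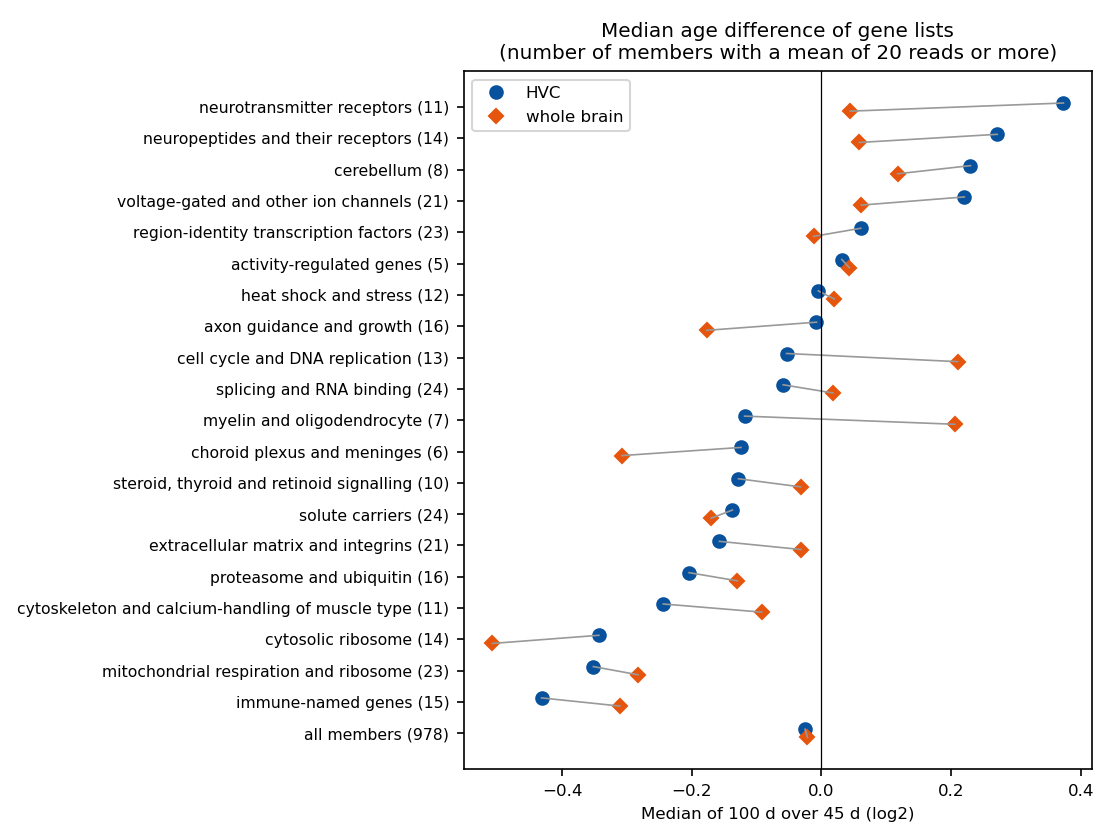
Median log2 ratio of 100 d over 45 d of each gene list in HVC (circles) and whole brain (diamonds), with the number of members having a mean of at least 20 reads. Neurotransmitter receptors stand at 0.37 in HVC against 0.04 in whole brain, while immune-named, mitochondrial and ribosomal lists are below 0 in both.

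Markers of other cells that the dissection could hold were read in the same libraries. Ependymal and ventricular zone markers (3 of 8 listed, VIM, DNAH1 and CCDC37) summed to a level of 449 in HVC at 100 d, against 608 and 835 at 45 d, and 205 in WB at 100 d against 222 at 45 d. VIM, the intermediate filament vimentin, carried most of that sum, with 348 reads in HVC at 100 d, against 466 and 743 at 45 d. CCDC37 ran the other way, with a level of 36.0 in HVC at 100 d, against 25.4 and 33.0 at 45 d. Astrocyte markers (2 of 8, AQP4 and SOX9) summed to 534 in HVC at 100 d, against 673 and 850 at 45 d, and 676 in WB at 100 d against 498 at 45 d. AQP4, the water channel of astrocyte end-feet, had an age by tissue value of -0.96 (standard error 0.44, edgeR adjusted p = 1).

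Microglial and macrophage markers (CD74 and MRC1-2, 2 of 9) summed to 42.0 in HVC at 100 d, against 112 and 64.2 at 45 d, and 227 in WB at 100 d against 222 at 45 d. Endothelial and mural markers (4 of 10, COL4A1, EDNRA, FLT4 and MYLK) summed to 321 in HVC at 100 d, against 407 and 533 at 45 d, and 289 in WB at 100 d against 333 at 45 d. Young neuron markers (2 of 5, DCX and STMN1) summed to 154 in HVC at 100 d, against 258 and 223 at 45 d, and 53.8 in WB at 100 d against 71.4 at 45 d. For these 3 lists and the 2 before them the summed level of the older HVC library was below that of both younger ones. Outside the members, the astrocyte glutamate transporter genes SLC1A2 (6820 reads in HVC at 100 d, against 8971 and 15607 at 45 d) and SLC1A3 (2605, against 3615 and 6537) ran the same way, while the microglial receptor gene CX3CR1 had 7 reads at 100 d, against 1 and 2. Their part in the result was not tested.

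Oligodendrocyte markers (7 of 11) summed to 2295 in HVC at 100 d, against 2461 and 2673 at 45 d, and 6480 in WB at 100 d against 5744 at 45 d. MBP, the myelin basic protein, had 1014 reads in HVC at 100 d, against 890 and 1337 at 45 d, and 4548 in WB at 100 d against 4116 at 45 d. Excitatory pallial markers (4 of 6) summed to 3518 in HVC at 100 d, against 3803 and 3612 at 45 d. Interneuron markers (2 of 8, CALB2 and both PVALB transcripts) summed to 1212 in HVC at 100 d, against 897 and 1067 at 45 d, and 586 in WB at 100 d against 470 at 45 d. PVALB-2 carried most of that HVC sum, with a level of 1183 at 100 d, against 860 and 1019 at 45 d. The other transcripts ran the other way in HVC. CALB2 had a level of 7.0 at 100 d, against 11.1 and 11.9 at 45 d, and PVALB-1 22.0, against 25.4 and 35.7. Outside the members, the genes of the GABA-making enzymes were higher in HVC at 100 d, GAD2 with 4186 reads, against 2242 and 2434 at 45 d, and GAD1-1 with 1249, against 909 and 874. The part of GABAergic cells in the HVC differences was not tested. Cerebellar markers (9 of 14) summed to 1539 in HVC at 100 d, against 1121 and 1454 at 45 d, and 4110 in WB at 100 d against 4095 at 45 d, with PVALB and CALB1 shared with interneurons. GABRA6, which defines cerebellar granule cells, had 1 read in HVC at 100 d, against 0 and 0 at 45 d. No erythrocyte marker was a member.

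**Figure D5:**
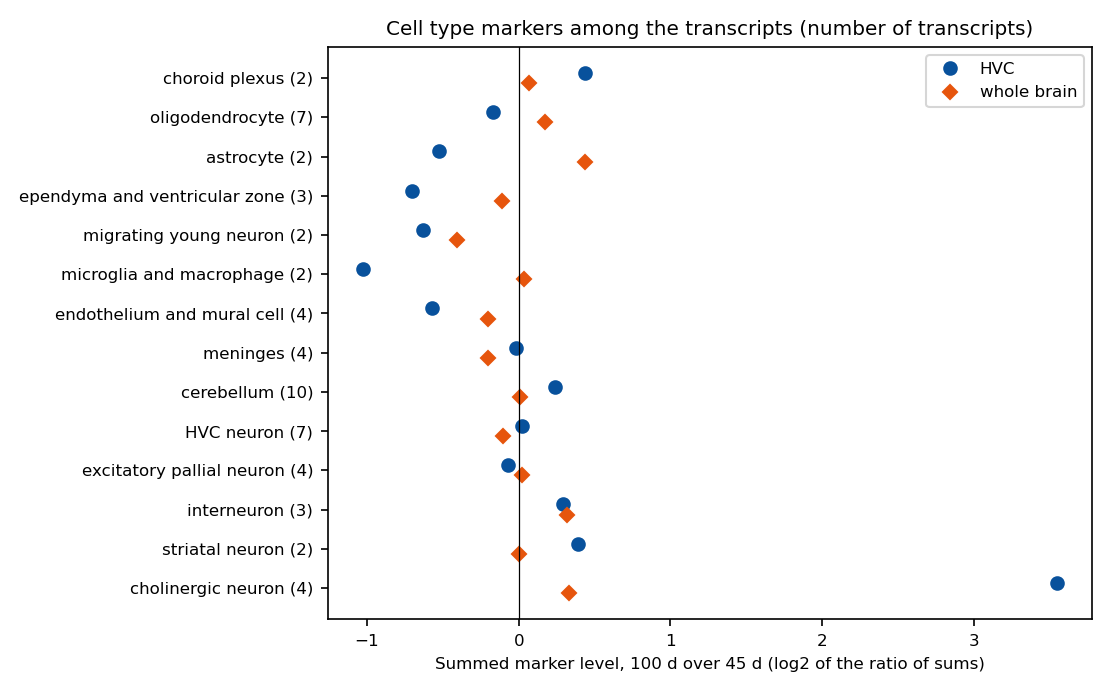
Log2 ratio of summed marker levels, 100 d over 45 d, in HVC (circles) and whole brain (diamonds), with the number of marker transcripts among the members. Cholinergic markers stand apart in HVC at a ratio of 11.7, against 1.26 in whole brain, and astrocyte, ependymal, young neuron, microglial and endothelial markers lie below 0 in HVC.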

How the data were processed

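RNA-Seq libraries of male zebra finch HVC and whole brain were made with a NuGEN Ovation kit and sequenced on a Genome Analyzer II. Per the study's methods the authors mapped trimmed reads to taeGut1 with ELAND2 and compared groups with edgeR. The 4 deposited tables hold raw read counts per Ensembl transcript, the authors' log2 fold changes, and the authors' p-values and adjusted p-values, each for the 1800 transcripts of smallest p out of 10859 to 11507 tested. Listed counts are not a whole library, so relative sizes were solved from 6748 of the deposited log2 fold changes, which with the number tested were the only use of the authors' comparison columns. Shared counts conflicted in 0 cases.

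Counts were fitted with edgeR 4.0.16 (glmQLFit, glmQLFTest, filterByExpr) in R 4.3.3, with Benjamini-Hochberg adjustment over the 11258 (HVC), 11101 (whole brain) or 11507 (age by tissue) transcripts tested by the authors, and calls at an adjusted p under 0.1. The HVC fit used 3 libraries, the whole brain fit 4 (with the 45 d HVC pair for the spread) and the age by tissue fit 5. Standard errors are the log2 value over the root of F. Age values and classes of the members come from 1 fit of all 5 libraries with a common dispersion. Count ratios carry exact 95% intervals, and groups without reads a floor of 3 reads over the group; both cover counting error only. The code was tested on simulated data. Alternatives were TMM, relative log expression and plain-sum scaling, no filter, DESeq2 1.42.0, limma 3.58.1 (voom), adjustment over fitted transcripts alone, contrasts from the 5-library fit, other fold and read limits, subsets by listing, and each 45 d HVC library left out.

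Named genes had a gene symbol, a mean of at least 20 reads and the same sign against each 45 d HVC library (of the age difference in HVC for classes shared and opposite and for genes the study names, of both that and the age by tissue value otherwise). They were the 6 of largest smaller difference among shared and opposite changes in each direction, the 6 of largest age by tissue value in each direction among changes of 1 tissue, up to 4 of most reads per gene list, and those the study names. Members and lists were chosen with earlier results of these data known. Transcripts whose symbol is a database identifier were counted and not named. Figures were drawn with matplotlib 3.10.9 in Python 3.11.15.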

Additional observations from a re-analysis of the deposited data

Results flagged for a closer look

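In 5 named members the age difference ran in opposite directions in the tissues against each 45 d HVC library taken alone, which is what drew attention to them. The test of the difference between the tissues was run, and at an edgeR adjusted p under 0.1 none of them passed. On the log2 scale the age by tissue value was 4.08 for TAC1, 2.84 for CES1, -2.74 for HAO1, -2.63 for RPS2 and -2.29 for BLVRA. Only HVC at 45 d has more than 1 library, so in whole brain a direction is that of 1 library at each age. For RPS2 that direction rested on 8 reads at 100 d against 4 at 45 d.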

How the results depend on the processing

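No paired analysis was possible because only the 45 d HVC group has numbered libraries. The count of age by tissue calls was 0 under TMM, relative log expression and sum scaling, DESeq2 and limma-voom, 4 with no filter on low counts and 7 when adjusted over the fitted transcripts alone. The HVC age test called 0 under the 3 scalings and limma-voom, 2 with DESeq2, 10 with no filter, 12 from the 5-library fit and 19 adjusted over the fitted transcripts alone. The whole brain age test, with 2 calls, gave 0 under sum scaling, DESeq2 and limma-voom, 4 with no filter and 7 adjusted over the fitted transcripts alone.

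Shared differences numbered 27, opposite 9, HVC alone 32 and whole brain alone 13. With a 3-fold limit these were 3, 0, 12 and 1, with a mean of 50 reads 9, 1, 18 and 4, and with no read filter 93, 37, 49 and 25. Restricted to transcripts listed for both tissue comparisons, 9 were shared and 3 opposite. Restricted to those listed for both age comparisons, HVC alone held 2 and whole brain alone 0. Sum scaling gave 14 opposite. Leaving out a 45 d HVC library gave 20 to 27 shared, 5 to 11 opposite, 40 to 52 HVC alone and 16 to 17 whole brain alone. Without R92L1, 28 of the 32 HVC members stayed in their class, and without R92L2, 20. No value of a named gene of the classes reversed under any of these alternatives. With a 45 d HVC library left out this was fixed beforehand, because naming required the same sign against each of them. Over the 978 members with at least 20 reads, the sign of the HVC difference changed between those libraries in 266.

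The median age by tissue value was -0.04, and it moved to -0.10 under TMM, 0.06 under relative log expression and 0.22 under sums. Under sums the positive members at an unadjusted p under 0.05 numbered 50 and the negative ones 10, against 43 and 50. HVC differences alone then split into 20 higher and 12 lower, against 13 and 19. Depth limits members under 20 reads, 227 of 1205, whose ratios have wide counting intervals.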

Other observations

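Of the 4 age by tissue calls made with no filter on low counts, 2 were of transcripts without a gene name, given as values only. ENSTGUT00000019385 had 4607 reads in HVC at 100 d, against 22179 and 7430 at 45 d, and 37241 in whole brain at 100 d against 29201 at 45 d. ENSTGUT00000018345 had 211 reads in HVC at 100 d, against 1698 and 476 at 45 d, and 73 in whole brain at 100 d against 102 at 45 d. In both the 45 d HVC libraries differed by more than 2-fold. A further unnamed transcript, ENSTGUT00000014843, had 85 reads in HVC at 100 d, against 56 and 61 at 45 d, and 56 in whole brain at 100 d against 254 at 45 d, where the 45 d pair was close.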
